A study of Mus musculus with 6 samples.

Results

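Lungs that carried the IL-4 receptor only as a transgene under a smooth muscle promoter (IL4R KO + SMP8-IL4R) were compared with lungs that lacked the receptor (IL4R KO), after both had been given IL-13. These were the arrays labelled with those genotypes, 4 of the 6 in the series, with 2 per group and all probe sets used. Both groups were adult BALB/c mice with both endogenous Il4ra alleles deleted (-/-). The transgenic mice also had 1 copy of SMP8-IL4R (+/-), while the IL4R KO mice had none. Every mouse received 2 to 3 µg of IL-13 into the trachea once a day for 7 days, and whole lungs were collected 24 hours later. Each array read RNA pooled from 4 mice, so 2 pools stood for 8 mice per genotype. The remaining 2 arrays, from wild type (WT) mice on the same schedule, helped to estimate the spread between pools. No untreated lungs were compared, so the values do not show what IL-13 itself did.

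IL-13, a type 2 cytokine, binds a receptor made of IL-4Rα (Il4ra) and Il13ra1 and signals mainly through the transcription factor Stat6. In the airway it is known for mucous change of the epithelium, for eosinophil-attracting chemokines and for airway hyper-responsiveness. SMP8 is a fragment of the mouse smooth muscle alpha-actin (Acta2) promoter, a gene expressed in airway and vascular smooth muscle and in myofibroblasts. Contractile genes of smooth muscle are switched on by serum response factor (Srf) bound to CArG boxes together with its coactivator myocardin (Myocd).

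Values are log2 RMA values, a scale on which a difference of 1 is a 2-fold change, and levels of different genes are not compared because each probe set has its own brightness. Differences are transgenic minus IL4R KO. The threshold for passing was an adjusted p below 0.05 in limma with Benjamini-Hochberg adjustment over the 11861 genes tested, and adjusted p-values below are from that fit unless another is named. The labels do not say that pools were independent cohorts, so p-values measure the spread between pools. With 2 pools per group an exact permutation test cannot go below p = 0.333 (two-sided), so it was not used.

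The 2 IL4R KO pools were less alike than the 2 transgenic pools, with an SD over genes of 0.340 for their difference against 0.169. Albumin (Alb), a liver product, was 12.26 in IL4R KO pool 1 and 5.91 in pool 2, against 5.68 and 5.93 in the transgenic pools. The Y-linked Eif2s3y gave 4.27 in IL4R KO pool 2, compared with 8.49 to 9.18 in the other 3. For Xist, the RNA that coats the silenced X chromosome, IL4R KO pool 1 gave 7.93 and the others gave 10.83 to 11.40. The labels give no sex. Alb was also high in WT pool 2 (11.81, against 5.90 in WT pool 1), an array that helped to estimate the spread. For Acta2, Tpm2, Myocd and Tmem45b the difference without IL4R KO pool 1 is given with the call.

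Il4ra was read by 3 probe sets whose place relative to the deleted part and to the transgene is not given in the sources used here, so they do not check the genotypes. The brightest gave 9.98 and 9.84 in transgenic pools against 9.35 and 9.55 in IL4R KO pools, and 9.64 and 9.81 in WT. Both transgenic pools lay above both IL4R KO pools, by 0.46 ± 0.10 (SE), which did not pass (limma adjusted p = 0.241). The other probe sets differed by -0.06 and -0.02, with overlapping groups. None of the 17 tested genes of this receptor and its signalling passed, of 18 with a probe set, where 0.101% of all genes did. Differences in this list ran from -0.28 for the adaptor Irs2 to 0.46 for Il4ra, with a median of 0.05. The feedback inhibitor Socs1, a Stat6 target, was 6.83 and 6.78 in transgenic pools and 6.50 and 6.61 in IL4R KO pools, a difference of 0.25 that did not pass (adjusted p = 0.331), against 7.37 and 7.21 in WT. The co-receptor Il13ra1 differed by 0.23 (adjusted p = 0.327).

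Smooth muscle transcripts were higher and adipocyte transcripts lower in the transgenic lungs. In all, 9 genes rose (0.0759% of those tested) and 3 fell (0.0253%). With 0.101% of genes passing in either direction, a list with 0 passing is near the share over all genes. The rises were Actg2, Synpo2, P2rx1, Rgs5, Myocd, Egln3, Tpm2, Col8a1 and Acta2, by 1.57-fold to 2.80-fold. The falls were Adipoq, Tmem45b and Cidec, to between 0.381 and 0.520 of the IL4R KO level. The spread estimate behind these calls draws on all 6 arrays, with 3 residual degrees of freedom. Fitted on the 4 arrays alone, 0 genes passed in limma. Of the 11861 genes, 974 had an unadjusted p under 0.05 in that fit, against 1469 with all 6 arrays. With pool number as an added term (the replicate block), 6 of the 12 still passed. Acta2, Cidec, Col8a1, Myocd, Tmem45b and Tpm2 did not. A fit that leaves 1 pool in a group holds none of the spread between that group's pools, so only its differences are given. All 12 genes kept their direction whichever 1 pool was left out.

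**Figure D1:**
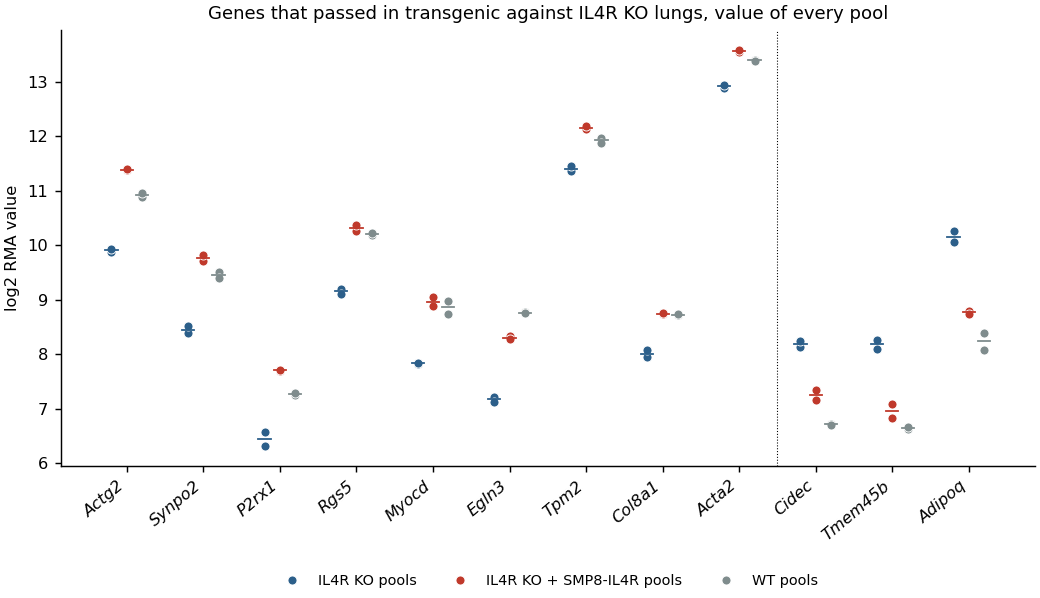
Log2 RMA values (vertical axis) of the 12 genes that passed, with 1 point per pool and a short bar at each group's mean of 2 pools. In the 9 genes left of the dotted line both red transgenic points lie above both blue IL4R KO points, and in the 3 to its right both lie below.

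Among the filament proteins of the contractile apparatus, gamma smooth muscle actin (Actg2), the actin of enteric and airway muscle, changed by the largest amount. It was 11.38 and 11.39 in transgenic pools and 9.88 and 9.93 in IL4R KO pools. The groups were far apart relative to the gap within each, a rise of 1.48 ± 0.06 (SE, adjusted p = 0.00474). Alpha smooth muscle actin (Acta2), the gene whose promoter drives the transgene, was 13.55 and 13.58 against 12.89 and 12.95. Its rise of 0.65 ± 0.06 (adjusted p = 0.0424) came from probes of a kind that can also bind other actin transcripts. Without IL4R KO pool 1 the rise was 0.62. A dimmer Acta2 probe set gave 5.84 and 6.12 against 4.73 and 4.97, a difference of 1.13, and another gave 0.26. Beta-tropomyosin (Tpm2), which lies along the thin filament, was 12.14 and 12.18 against 11.36 and 11.46. It rose by 0.75 ± 0.07 (adjusted p = 0.0424), and by 0.70 without IL4R KO pool 1. The next Tpm2 probe set also differed by 0.74, and the dimmer ones by -0.03 and 0.24.

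Smooth muscle myosin heavy chain (Myh11), the motor of the thick filament, was 11.38 and 11.50 against 10.71 and 10.75. All transgenic values lay above the IL4R KO values, but the difference of 0.71 ± 0.07 did not pass (adjusted p = 0.0694). Its dimmer probe set gave 6.39 and 6.60 against 6.17 and 6.58, overlapping groups with a difference of 0.12, and the median of both probe sets gave 0.41. The regulatory light chain Myl9 was 12.09 and 12.07 against 11.35 and 11.52, a difference of 0.64 (adjusted p = 0.0908). The calponin-related Tagln was 12.53 and 12.55 against 11.98 and 12.06, a difference of 0.52 (adjusted p = 0.0930). These genes thus had separated groups while missing the threshold. The actin nucleator Lmod1 differed by 0.46 (adjusted p = 0.237), calponin Cnn1 by 0.43 (adjusted p = 0.190), the thin filament protein Cald1 by 0.30 (adjusted p = 0.219) and myosin light chain kinase Mylk by 0.28 (adjusted p = 0.221).

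Synaptopodin-2 (Synpo2), an actin-binding protein of the Z-disc and dense bodies, was 9.71 and 9.81 in transgenic pools and 8.38 and 8.52 in IL4R KO pools. That rise of 1.31 ± 0.08 (adjusted p = 0.0136) came from its brightest probe set alone. The other 3 Synpo2 probe sets gave -0.01, -0.28 and 0.07, so the gene's transcripts did not all differ alike. Of the cross-linkers and adhesion proteins, the filament cross-linker Flna differed by 0.26, Actn1 by 0.20 and the intermediate filament protein Des by 0.17, and none of them passed (adjusted p from 0.241 to 0.352).

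The smooth muscle list held 32 contractile and cytoskeletal genes, of which 31 had a probe set and were tested. Of these, 4 rose (Actg2, Synpo2, Tpm2 and Acta2) and 0 fell, and 18 had an unadjusted p under 0.05, all higher, as did 6.94% of all genes tested. Both transgenic pools lay above both IL4R KO pools for 25 of the 31, and below them for 0. Over all genes tested, groups were separated upward for 21.1% and downward for 20.6%. The median difference was 0.22, where the median over all genes tested was -0.0047. Differences ran from -0.01 for the LIM protein Csrp1 to 1.48 for Actg2. Taking the median of each gene's probe sets, the list's median was 0.15 and 1 member passed.

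**Figure D2:**
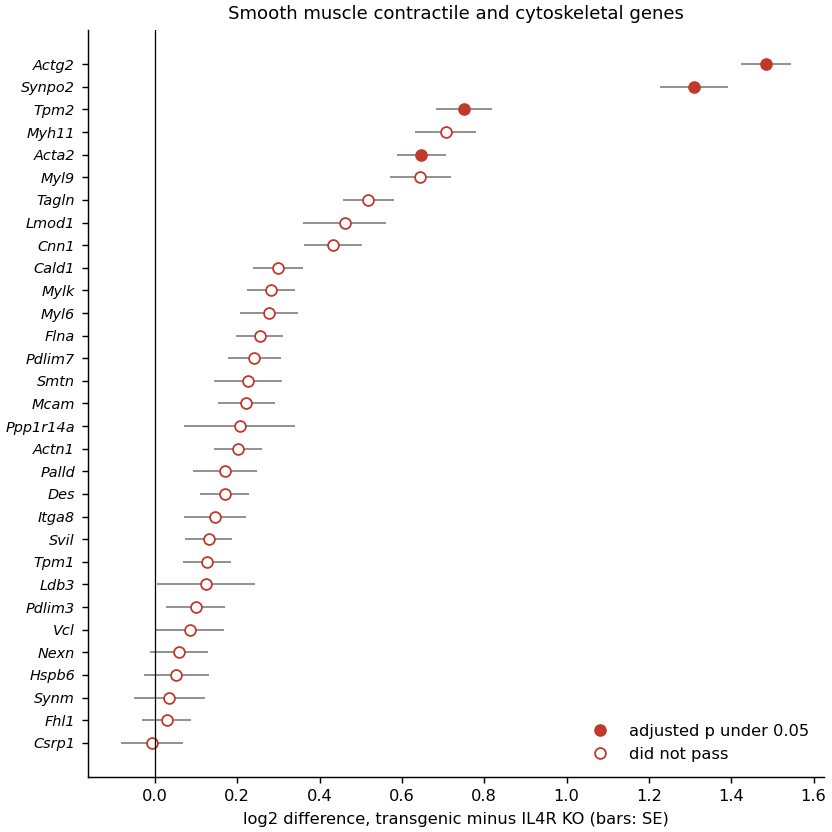
Log2 difference between transgenic and IL4R KO lungs (horizontal axis, bars show the SE of the fit) for each of the 31 tested smooth muscle contractile and cytoskeletal genes. The 4 filled points passed, and all differences but that of Csrp1 lie above 0.

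Of the regulators of this programme, Myocd was the gene that passed. It was 8.88 and 9.05 in transgenic pools and 7.82 and 7.84 in IL4R KO pools, a rise of 1.13 ± 0.10 (adjusted p = 0.0424). Without IL4R KO pool 1 the rise was also 1.13. WT pools were at 8.98 and 8.74, level with the transgenic pools. A dimmer Myocd probe set gave 6.78 and 6.75 against 6.38 and 6.19, a smaller difference of 0.48. Its partner Srf had values of 9.02 and 9.07 against 9.10 and 8.99, which overlapped. The other tested regulators, 17 of 18 and including the myocardin relatives and Mef2, Gata and Klf factors, did not pass. Their differences ran from -0.28 for Klf5 to 0.22 for the homeobox gene Prrx1, and the list's median was -0.02. On the brightest probe sets, the rise of Myocd was thus not shared by the rest of this list. A dimmer Prrx1 probe set gave 6.42 and 6.30 against 5.34 and 5.71, a difference of 0.84. The 6 probe sets of Prrx1 ran from -0.16 to 0.84, with a median of 0.14.

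Promoter sequences are shown for 2 genes of the contractile list, in capitals where a CArG box was found. Acta2 is shown because the transgene promoter comes from it, and Myl9 because it held an exact match. Myl9 was 1 of 5 genes of the list with an exact match, and had the highest difference of them. The sequences are the 250 bases before the start of transcription from RefSeq (GRCm38.p6), 5′ to 3′ on the gene's strand. The Acta2 window is chr19:34255374-34255623 (minus strand) and the Myl9 window is chr2:156775214-156775463 (plus strand). Capitals mark CArG boxes, searched on both strands as the pair CC, 6 bases and the pair GG, with at most 1 G or C among the 6.
Acta2: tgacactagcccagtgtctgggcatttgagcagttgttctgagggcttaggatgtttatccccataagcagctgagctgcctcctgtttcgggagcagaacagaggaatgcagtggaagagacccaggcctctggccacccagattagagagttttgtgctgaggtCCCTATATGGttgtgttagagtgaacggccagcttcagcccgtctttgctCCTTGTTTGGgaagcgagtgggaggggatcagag
Myl9: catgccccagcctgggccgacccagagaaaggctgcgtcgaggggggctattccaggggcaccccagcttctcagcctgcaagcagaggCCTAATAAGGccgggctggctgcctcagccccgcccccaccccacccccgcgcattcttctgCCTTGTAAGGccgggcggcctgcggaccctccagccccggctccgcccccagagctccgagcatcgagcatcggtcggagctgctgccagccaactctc
Counted from the transcription start, the Acta2 boxes begin at positions -84 and -34, and both carry 1 G or C in the core. Myl9 has boxes at -161 and -99, of which the more distant has A and T alone in its core. Such a box with A and T alone was present in 1.47% of 32851 promoter windows, and in 8.59% when 1 G or C was allowed. Of the 9 genes that rose, 7 had a window, and 0 held the strict box. Allowing 1 G or C, 2 held it, Acta2 and Egln3. In the contractile list, 26 of 31 genes had a window, 5 held the strict box and 9 the looser form. A match is a description of the sequence only.

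Among signalling genes that set the tone of muscle, P2rx1 and Rgs5 passed. The ATP-gated channel P2rx1, which admits calcium on nerve-released ATP, was 7.70 and 7.71 in transgenic pools against 6.58 and 6.32 in IL4R KO pools. Its rise of 1.26 ± 0.09 passed (adjusted p = 0.0317), and its other probe set gave 0.62. Of 12 tested P2X and P2Y receptors P2rx1 alone passed. The remaining 11 differed by -0.27 (P2rx4) to 0.24 (P2rx7), and the median of all 12 was 0.00.

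Rgs5, which shortens signalling by G protein-coupled receptors in pericytes and smooth muscle, was 10.27 and 10.38 against 9.20 and 9.10. It rose by 1.17 ± 0.07 (adjusted p = 0.0136), and its 4 probe sets gave between 0.70 and 1.17. Of 12 tested RGS genes none other passed. The next by p, Rgs18, a platelet and myeloid member, differed by 0.83 (adjusted p = 0.341).

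Receptors for bronchoconstrictors and relaxants gave 10 tested genes of 19 with a probe set, and 0 passed. The leukotriene receptor Cysltr1 had the highest difference, 0.65 (adjusted p = 0.272), and the prostaglandin F receptor Ptgfr the lowest, -0.29 (adjusted p = 0.314). The cyclic GMP kinase substrate Mrvi1, which dampens calcium release, was 8.03 and 8.04 against 7.36 and 7.48, a difference of 0.62 (adjusted p = 0.0930). The cyclic GMP phosphodiesterase Pde5a differed by 0.40 (adjusted p = 0.270).

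Calcium and potassium channel genes went both ways. The voltage-gated calcium channel Cacna1c differed by 0.33 and the potassium channel subunit Kcnmb1 by 0.40. The sarcoplasmic calcium handling genes Casq2 and Pln, which heart muscle also expresses, differed by -0.40 and -0.30. None of the 20 tested passed, with adjusted p of 0.197 or more.

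The prolyl hydroxylase Egln3, an oxygen-sensing enzyme that marks hypoxia-inducible factors for destruction, was 8.33 and 8.28 in transgenic pools and 7.22 and 7.12 in IL4R KO pools. Its rise of 1.13 ± 0.06 (adjusted p = 0.0136) had no overlap between groups, and its other probe set gave 1.32. Its relative Egln2 differed by -0.21. Of 21 tested genes of the hypoxia list, Egln3 was the 1 that passed. The vasodilator peptide gene Adm had the lowest difference, -0.62 (adjusted p = 0.282), and the list's median was -0.07.

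Col8a1, a short-chain collagen of vessel walls, was 8.74 and 8.75 against 7.95 and 8.08, a rise of 0.73 ± 0.07 (adjusted p = 0.0427). Its other probe sets gave 0.39 and 0.44. The matrix protein periostin (Postn) was 12.07 and 12.16 against 11.74 and 11.70, a difference of 0.39 that did not pass (adjusted p = 0.189). Fibrillar Col5a2 and beaded-filament Col6a3 differed by 0.37 and 0.38. Of 28 tested matrix genes 1 passed, 12 had an unadjusted p under 0.05 in the upward direction (6.94% of all genes) and 1 downward (5.45%), and the median was 0.08. The protease inhibitor Timp1 had the highest difference, 1.27, with pools at 10.80 and 9.65 against 9.35 and 8.57 (SE 0.41, adjusted p = 0.331). The growth factor Igf1 differed by 0.52 (adjusted p = 0.167), with 9.41 and 9.51 against 8.96 and 8.92. The binding protein gene Igfbp3 differed by -0.71 (adjusted p = 0.273). None of the 21 tested growth factor genes passed.

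Adipocyte genes were lower in the transgenic lungs. Adiponectin (Adipoq), a hormone of fat cells, was 8.79 and 8.75 in transgenic pools and 10.06 and 10.26 in IL4R KO pools. It fell by 1.39 on the log2 scale (SE 0.12, adjusted p = 0.0424). The lipid droplet protein gene Cidec was 7.16 and 7.34 against 8.13 and 8.25, and fell by 0.94 (SE 0.08, adjusted p = 0.0424). Both genes kept clear of overlap, and each was measured by 1 probe set. In whole lung, fewer cells of a type and less RNA per cell cannot be told apart.

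The lipid carrier Fabp4 was 10.67 and 10.73 against 11.69 and 11.46, a difference of -0.88 (adjusted p = 0.0930), with 4 probe sets between -0.88 and -0.70. Thrsp, a lipogenic factor that liver also expresses, was 9.14 and 9.31 against 10.40 and 10.99, a difference of -1.48 (adjusted p = 0.157). The triglyceride enzyme Dgat2 differed by -0.82, the adipokine Retn by -0.79, glycerol phosphate dehydrogenase Gpd1 by -0.54 and hormone-sensitive lipase Lipe by -0.43, and none of these passed. All had both transgenic pools below both IL4R KO pools.

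Of 24 adipocyte genes listed, 21 had a probe set and 18 were tested, of which 2 fell and 0 rose. An unadjusted p under 0.05 was found for 15, all lower, as for 5.45% of all genes, and groups were separated downward for 16 of 18 against 20.6% of all genes. The median was -0.48. Summed over the 21 measured members on the linear scale, the list stood at a log2 of 15.01 and 14.99 in transgenic pools and 15.45 and 15.40 in IL4R KO pools. The WT pools stood at 14.92 and 15.05. Leaving out IL4R KO pool 1 gave a median of -0.54, and leaving out pool 2 gave -0.50. Brown fat genes lay lower too, without passing. Uncoupling protein Ucp1 was 6.93 and 7.29 against 8.01 and 8.27, a difference of -1.03 (adjusted p = 0.184), and the mitochondrial subunits Cox7a1 and Cox8b differed by -0.70 and -0.60. Of 7 tested brown fat genes 5 had separated groups, all lower, with a median of -0.60.

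Tmem45b, a transmembrane protein gene that is in none of the lists, was 6.83 and 7.09 against 8.27 and 8.09. It fell by 1.22 (SE 0.11, adjusted p = 0.0424) and was read by 1 probe set. Without IL4R KO pool 1 the difference was -1.13. The adhesion molecule Cdh13, a receptor for adiponectin, was 8.54 and 8.57 against 9.06 and 9.12, a difference of -0.53 (adjusted p = 0.0841). The ficolin gene Fcna, a lectin of the complement system, was 7.44 and 7.67 in transgenic pools and 8.41 and 8.44 in IL4R KO pools. It missed the threshold with a difference of -0.87 (adjusted p = 0.0617), and its WT pools, at 8.41 and 8.46, matched IL4R KO.

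Cardiac muscle genes, which mouse lung expresses in the sleeves around pulmonary veins, had lower values in the transgenic pools, with none passing. The atrial peptide gene Nppa was 8.63 and 8.51 in transgenic pools and 11.29 and 10.55 in IL4R KO pools, a difference of -2.35 ± 0.25 (adjusted p = 0.0694). Its relative Nppb was 6.11 and 5.23 against 7.48 and 7.30, a difference of -1.72 (adjusted p = 0.184). Both peptides had the widest gaps of the list. The sarcomere genes Tnni3, Myl4, Myh6 and Myl7 differed by -0.63, -0.52, -0.37 and -0.34.

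Of 20 tested cardiac genes 17 had both transgenic pools below both IL4R KO pools, against 20.6% of all genes, and 2 had them above, against 21.1%, namely Actc1 (0.15) and Nebl (0.09). The median was -0.40, and -0.28 without IL4R KO pool 1. The summed linear level of the 21 measured members had a log2 of 14.72 and 14.81 in transgenic pools and 15.19 and 14.97 in IL4R KO pools. In WT pools it was 14.55 and 14.48. The part of dissected heart or vein tissue, and of surrounding fat, in these 2 lists was not tested.

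**Figure D3:**
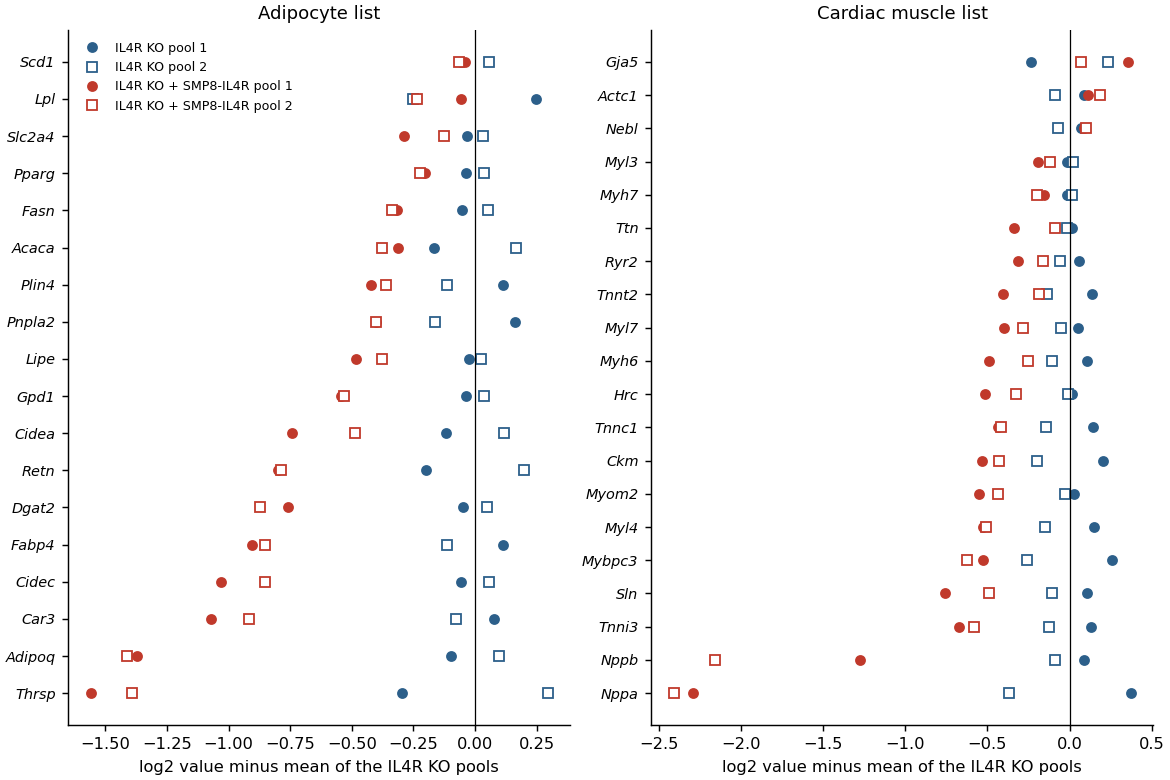
Log2 value of each pool minus the mean of the 2 IL4R KO pools (horizontal axis) for the 18 tested adipocyte genes and the 20 tested cardiac muscle genes. Filled circles are pool 1 and open squares pool 2. Red transgenic points lie left of both blue IL4R KO points in 16 adipocyte and 17 cardiac genes.

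Products of mucous epithelium and macrophages that IL-13 is known to induce did not pass between transgenic and IL4R KO lungs, where 0.101% of all genes did. Of 17 tested goblet and mucus genes 0 passed, the differences ran from -0.60 for the trefoil peptide Tff2 to 0.58 for Retnlb, and the median was -0.14. Muc5ac, the gel-forming airway mucin, was 6.53 and 6.74 in transgenic pools and 6.80 and 6.83 in IL4R KO pools, against 10.53 and 10.49 in WT. The transgenic lungs differed from WT by -3.88 for this gene (adjusted p = 2.08e-05). Bpifb1, a secreted airway protein, differed from IL4R KO by -0.44 (adjusted p = 0.218). Of 18 tested genes of alternatively activated macrophages 0 passed, with a median of -0.04. Among them Retnla differed by 0.72, but with a wide spread (SE 0.33, adjusted p = 0.444), and the lipoxygenase Alox15 by -0.58 (adjusted p = 0.281).

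Chemokines gave a mixed picture, with 0 of 23 tested genes passing, against 0.101% of all genes. The eosinophil attractant Ccl11, which smooth muscle cells also make, was 8.27 and 7.89 in transgenic pools and 6.87 and 6.47 in IL4R KO pools, while WT pools were at 10.79 and 10.77. Its difference of 1.41 ± 0.17 did not pass (adjusted p = 0.0930), and the transgenic lungs differed from WT by -2.70 (adjusted p = 0.00158). Ccl12, a monocyte attractant, was 8.34 and 7.81 against 6.97 and 7.01, a difference of 1.08 (adjusted p = 0.167), with both WT pools at 6.97. The interferon-induced Cxcl9 and Cxcl10 had differences of 1.49 and 1.43, with the pools of each group far apart (SE 0.46 and 0.45, adjusted p = 0.315 and 0.323). The median over all 23 was 0.05.

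Proliferation genes had higher summed values in transgenic than in IL4R KO pools. On the linear scale the list's sum had a log2 of 13.11 and 12.78 in transgenic pools and 12.68 and 12.50 in IL4R KO pools. WT pools stood at 12.97 and 12.94. The spindle checkpoint kinase Bub1 was 7.67 and 7.10 in transgenic pools and 6.51 and 6.41 in IL4R KO pools, a difference of 0.92 (adjusted p = 0.218). The ribonucleotide reductase subunit Rrm2 was 9.49 and 8.95 against 8.70 and 8.27, a difference of 0.73 (adjusted p = 0.283). All 12 tested cell cycle genes had a positive difference, with 7 separated upward, against 21.1% of all genes, and 0 passing. Chek1, a checkpoint kinase outside that list and named after its values were seen, differed by 0.61 in its brightest probe set (adjusted p = 0.163). When each probe set was fitted on its own, another Chek1 probe set, at 6.51 and 6.36 against 5.40 and 5.35, passed with 1.06 (adjusted p = 0.0446). The cell cycle list's median of 0.54 was 0.26 without transgenic pool 1 and 0.78 without transgenic pool 2. It was 0.79 when IL4R KO pool 1 was left out and 0.25 when pool 2 was.

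**Figure D4:**
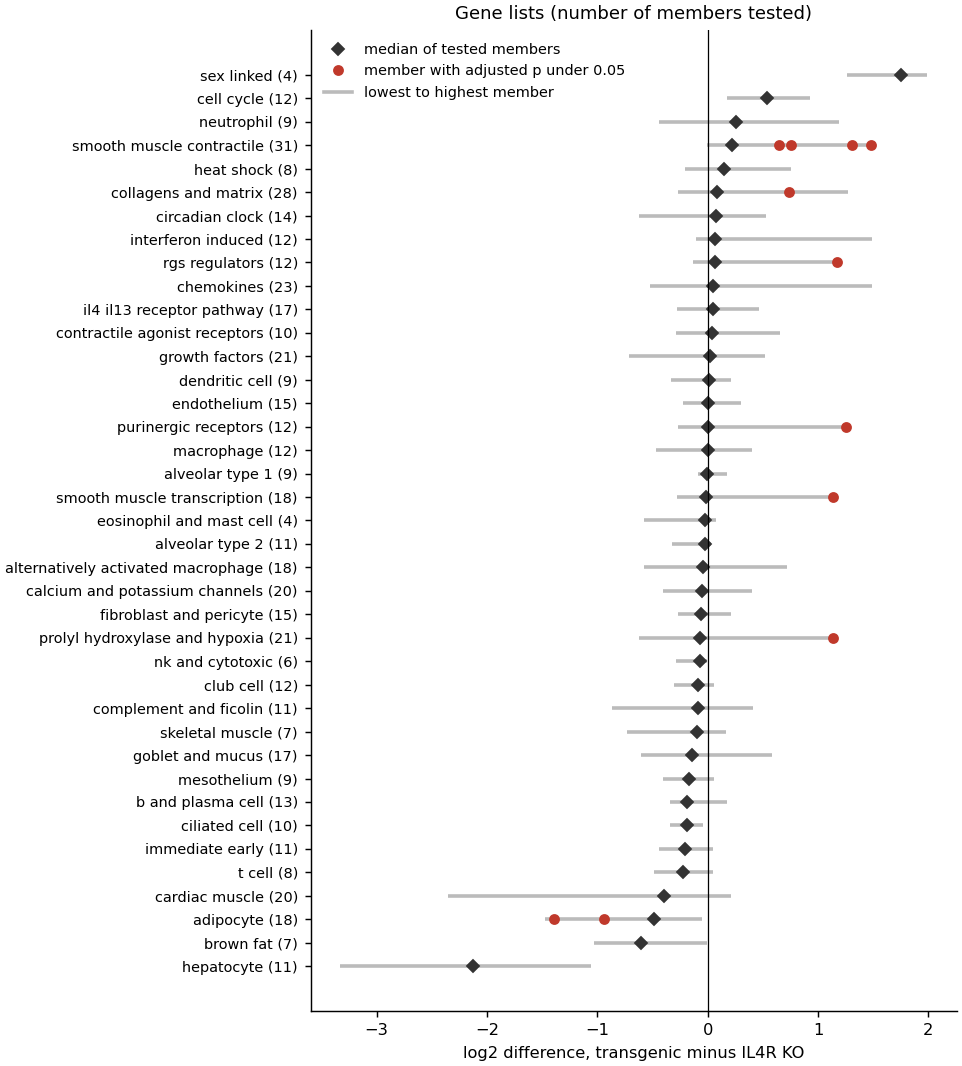
For each gene list shown, with at least 3 tested members (number in brackets), the grey bar spans the lowest to the highest log2 difference between transgenic and IL4R KO lungs, the diamond is the median and red points are members that passed. Farthest from 0 are the adipocyte, brown fat, cardiac and hepatocyte medians below it and the cell cycle and sex-linked medians above it. The next are neutrophil (0.25) and smooth muscle contractile (0.22) above 0 and T cell (-0.22) below it.

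No marker in the lists of other lung cells passed, where 0.101% of all genes did, so these counts do not set the lists apart. The list medians lay on both sides of 0. Medians were -0.02 for alveolar type 2 cells (11 tested), -0.08 for club cells (12), -0.19 for ciliated cells (10), 0.01 for endothelium (15), -0.06 for fibroblasts and pericytes (15), -0.17 for mesothelium (9), 0.00 for macrophages (12), -0.22 for T cells (8) and -0.19 for B and plasma cells (13). The fibroblast and pericyte list does not hold Rgs5, which passed and which pericytes also express. For ciliated cells all 10 differences were negative. Medians were 0.25 for neutrophils (9), 0.01 for dendritic cells (9), -0.07 for NK and cytotoxic cells (6), 0.00 for alveolar type 1 cells (9) and -0.10 for skeletal muscle (7). The surfactant gene Sftpb differed by -0.06 and the endothelial Pecam1 by -0.09. The type 2 cell sum had a log2 between 16.94 and 16.99 in the 4 pools. For NK and cytotoxic cells it was 11.14 and 12.47 in IL4R KO pools, on either side of 11.70 and 11.65 in transgenic pools. The neutrophil sum was 15.21 in transgenic pool 1 against 13.44, 14.50 and 13.66 in the others, and the granule gene Ngp in that pool was 10.98 against 7.09 to 8.32. For eosinophils and mast cells 11 of 15 measured genes fell under the filter, and the 4 tested had a median of -0.02. Of the lists of cell state, immediate early genes had a median of -0.20 (11 tested), heat shock genes 0.15 (8), circadian clock genes 0.07 (14), interferon-induced genes 0.07 (12) and complement genes -0.08 (11), with 0 passing. Nerve and Schwann cell (2 tested), red cell (2) and cartilage and thyroid (1) markers were mostly under the filter, and 0 passed. Mbp, of the nerve list, differed by -0.07 in its brightest probe set. Its 8 probe sets ran from -0.83 to -0.07, with a median of -0.53.

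Most of the differences over 2-fold went with a gap between the IL4R KO pools. Differences over 2-fold were found for 21 genes upward (0.177%) and 46 downward (0.388%). Of the 46, 38 were more than 2-fold higher in IL4R KO pool 1 than in IL4R KO pool 2, and all 11 tested hepatocyte genes were among the 46. The fibrinogen gene Fga, a liver product, was 10.23 in IL4R KO pool 1, 4.61 in pool 2, and 4.22 and 3.95 in transgenic pools. The hepatocyte median of -2.13 was -0.17 without IL4R KO pool 1. Of the 21 upward genes, 16 had IL4R KO pools within 2-fold of each other and 6 passed. The 5 others included Y-linked Kdm5d and Uty, which were low in IL4R KO pool 2. Moxd1, a monooxygenase-like gene named after its value was seen, was 7.44 and 7.85 against 6.01 and 5.50. Its difference of 1.89 ± 0.22 was the highest with separated groups and did not pass (adjusted p = 0.0908).

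**Figure D5:**
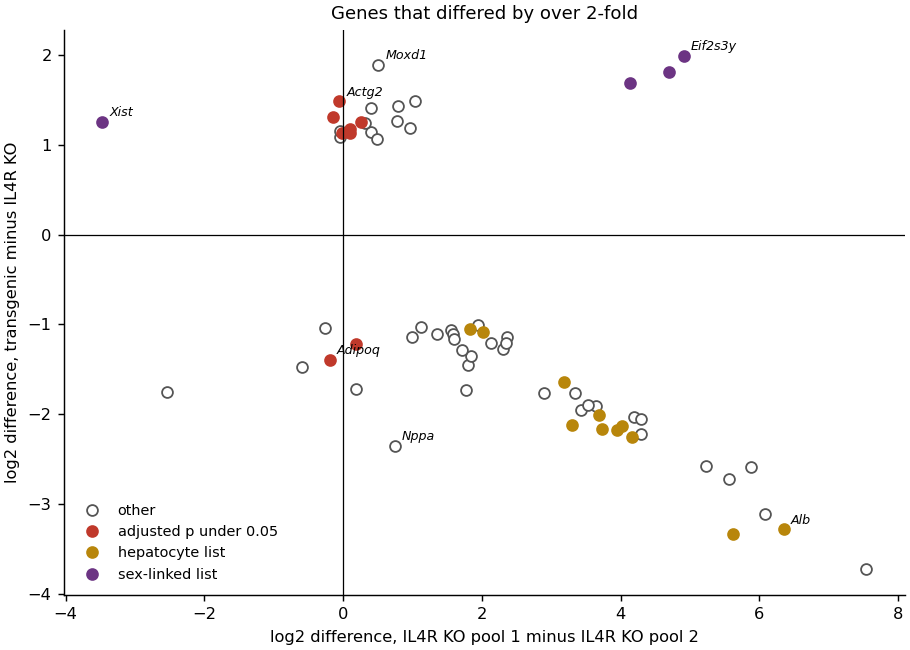
Genes that differed by over 2-fold, with the log2 gap between the 2 IL4R KO pools on the horizontal axis and the log2 difference between transgenic and IL4R KO lungs on the vertical axis. Most lower genes lie along a line to the right, where IL4R KO pool 1 was higher, while genes that passed lie near a horizontal value of 0.

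Of the 12 genes, 3 also passed between transgenic and WT lungs. The comparison with WT uses the same transgenic arrays, so the values are given side by side. Acta2, Tpm2, Synpo2, P2rx1, Rgs5, Myocd and Col8a1 differed from WT by 0.02 to 0.44, without passing (adjusted p from 0.0836 to 0.906). A p that misses the threshold does not show equal levels. Actg2 was above WT by 0.47 (WT 10.89 and 10.95, adjusted p = 0.0189), and Egln3 below it, with a difference of -0.46 (WT 8.77 and 8.75, adjusted p = 0.0253). Cidec stayed 0.54 above WT (WT 6.71 in both pools, adjusted p = 0.0350), while Adipoq (0.53, adjusted p = 0.0975) and Tmem45b (0.31, adjusted p = 0.215) did not pass. Over all genes, 82 were higher (0.691%) and 255 lower (2.15%) in transgenic than in WT lungs.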

How the data were processed

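Whole lung RNA pools were read on Affymetrix mouse expression arrays. The log2 values were deposited by the authors and had been made with RMA, per the submitters' processing notes, and its version is not given in the sources used here. RMA pulls dim signals toward a floor, so differences of dim genes are uncertain, and the number of arrays limits precision.

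From these log2 values, 64 control probe sets of 45101 were left out. Of the rest, 34945 had 1 gene in the platform annotation, 932 several and 9160 were unnamed here. Each of 18193 genes was represented by its brightest probe set over 6 arrays, and 11861 were tested, those with 2 or more arrays over 7.10 (the overall median). Group means were fitted with limma 3.58.1 (R 4.3.3) over all 6 arrays, with 3 residual and 2.86 prior degrees of freedom. The fit was also run on simulated data that had the same spread in every group. That run does not cover the unequal spread between pools seen here. The 43 gene lists (695 genes, 638 with a named probe set) and the comparison were chosen with earlier results of these data known, so lists are described by counts and medians, without set tests. Named genes were those that passed, the next by p up to 10 per direction, Il4ra, any member of 6 lists (both smooth muscle lists, receptor pathway, adipocyte, goblet, cardiac) and, of other lists, the 4 lowest p and the extremes. Exceptions are marked. The result of 1 list is not reported here. Alternatives covered filter, probe set choice, arrays, variance model, replicate block, normalization, pseudocount and covariates.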

Additional observations from a re-analysis of the deposited data

How the results depend on the processing

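The direction against IL4R KO of the 12 genes that passed held in every gene-level alternative in which they were tested, except for Synpo2 with the median of its probe sets (-0.14, and -0.0114 against WT). No call held in every alternative. Higher and lower counts were 9 and 3 in the fit reported. They were 5 and 0 with no filter, 4 and 3 with the median of a gene's probe sets, 0 and 0 with only the 4 transgenic and IL4R KO arrays, 14 and 5 with a robust fit and intensity trend, 6 and 0 after quantile normalization again, 62 and 57 with Eif2s3y as a covariate, 5 and 0 with Alb as a covariate, and 7 and 0, counted as probe sets (Rgs5 has 2, and 1 is Chek1), with every probe set on its own. Leaving out 1 array at a time gave 0 to 89 higher and 0 to 88 lower. With the replicate block they were 6 and 4, and 6 of the 12 still passed (not Acta2, Cidec, Col8a1, Myocd, Tmem45b and Tpm2). The correlations of pool differences over genes were 0.12 (transgenic, IL4R KO), -0.09 (transgenic, WT) and -0.51 (IL4R KO, WT). Each difference holds all that set 2 pools apart, so these values do not show whether equal pool numbers pair the arrays. Without IL4R KO pool 1 and WT pool 2, an alternative chosen after seeing the data, the 12 genes kept their direction.

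Among genes that did not pass, signs turned with the median of probe sets for Actn1 (-0.0607), Il4ra (-0.0588), Klf5 (0.25), Nebl (-0.0584), P2rx7 (-0.00877) and Srf (-0.0145). With Eif2s3y as a covariate they turned for Csrp1 (0.0410), Kdm5d (-0.11) and Srf (-0.0436). Against WT, Col8a1 was -0.00241 after centring and -0.0117 with Alb as a covariate, and Myocd was -0.0123 without WT pool 2 (also with IL4R KO pool 1 left out) and at most 0.224 with 1 array left out. Against IL4R KO, leaving out 1 array at a time moved Ngp between -0.75 and 3.13, Srf between -0.0574 and 0.0600, Csrp1 between -0.0639 and 0.0512, Xist between -0.48 and 2.99, Eif2s3y between -0.47 and 4.44, Kdm5d between -0.54 and 4.16 and Uty between -0.37 and 3.76. The lowest value of Ngp came without transgenic pool 1, that of Xist without IL4R KO pool 1 and those of the Y-linked genes without IL4R KO pool 2. The cause of these changes was not tested. Genes under the filter on dim values, among them 11 of 15 eosinophil and mast cell markers, were not tested.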
